A study of Macaca fascicularis with 32 samples.

Results

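GABAergic neurons of the substantia nigra, the midbrain region that also holds the dopamine neurons lost in Parkinson's disease, were examined in nuclei of cynomolgus macaques. They were selected on marker UMIs, as nuclei with at least 2500 UMIs (unique molecular identifiers, each standing for 1 captured RNA molecule), at least 3 UMIs of GAD1 and GAD2 together, at most 1 UMI of SLC17A6 and at most 2 UMIs of SLC6A3 and SLC18A2 together. The rule found 375 nuclei, 177 in the CT library and 198 in the PD library, of 9978 and 9000 barcodes from this region and 56659 in the whole series. In PD, Parkinson's disease was modelled with AAV-α-synuclein (α-synuclein carried by an adeno-associated virus) and poly(ADP-ribose), and CT is the control. The labels give the substantia nigra, the treatment code and a replicate number, and the serotype, promoter, dose, survival time, age and what the CT animals received are not given in the sources used here. The labels list 4 samples in each group, but the barcodes of a group form a single set with no mark of the animal. Each group was therefore 1 library, no difference below has a replicate check or a test, and treatment, animals and library cannot be told apart.

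GABAergic neurons release GABA, the main inhibitory transmitter of the brain. GAD1 and GAD2 make it from glutamate, and SLC32A1 loads it into synaptic vesicles. In the nigra such neurons include the fast-firing projection neurons of the pars reticulata, which inhibit the thalamus, superior colliculus and brainstem, and neurons that inhibit nearby dopamine cells. Unlike the GABAergic neurons of the striatum, which arise in the forebrain, those of the midbrain are known from mouse work to depend on transcription factors such as GATA2, GATA3, TAL1 and the GATA cofactors ZFPM1 and ZFPM2.

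The nuclei held a median of 9202 UMIs and 3789 genes in CT, and 9601.5 UMIs and 3836 genes in PD. Single nuclei ranged from 2881 to 23016 UMIs in CT and from 2591 to 31561 in PD. For comparison, dopaminergic nuclei (3 or more UMIs of SLC6A3 and SLC18A2, at most 2 of GAD1 and GAD2) had medians of 14297 and 14289.5 UMIs, and oligodendrocyte nuclei 3393 and 3380. CT and PD shared 37 barcodes, and 3 CT and 5 PD members had a barcode that also occurs in another library of the series. A Scrublet doublet score above 0.25 was found in 3 CT and 2 PD members, which were kept. Intervals below are 95% intervals and cover counting error only and not the spread between animals.

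The label was checked against the marker genes of GABAergic and other cells. A level in CPM is a gene's share of all UMIs summed over the nuclei of a group, scaled to 1000000. GAD1, used by the rule, was at 340.2 CPM in CT and 262 CPM in PD, with a UMI in 92.1% and 82.8% of the nuclei, against 2.91 and 1.76 CPM in dopaminergic nuclei. GAD2, also used, was at 343 and 357 CPM, with a UMI in 94.4% and 95.5% of the nuclei. SLC32A1, which the rule did not use, had a UMI in 20 CT nuclei (11.3%) and 21 PD nuclei (10.6%). The share of oligodendrocyte nuclei with an SLC32A1 UMI after thinning every nucleus to 2500 UMIs was 0.219% and 0%, and that of GABAergic nuclei was 3.95% and 3.03%. The glutamatergic markers SLC17A6, SLC17A7 and SLC17A8 summed to 1.76 CPM in CT and 7.16 in PD. The serotonergic markers summed to 1.76 and 3.34 CPM and the cholinergic ones to 1.76 and 0.955 CPM. The 8 oligodendrocyte markers summed to 992 and 731 CPM, and 12 nuclei in each library had 10 or more UMIs over MOBP, MOG, MAG and ST18. Without these nuclei 166 genes were at least 2-fold higher and 110 lower in PD, against 168 (1.94% of 8640 genes with at least 50 UMIs) and 137 (1.59%) with them. Fewer genes kept 50 UMIs without them, so the 2 pairs of counts are not shares of the same set.

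**Figure D1:**
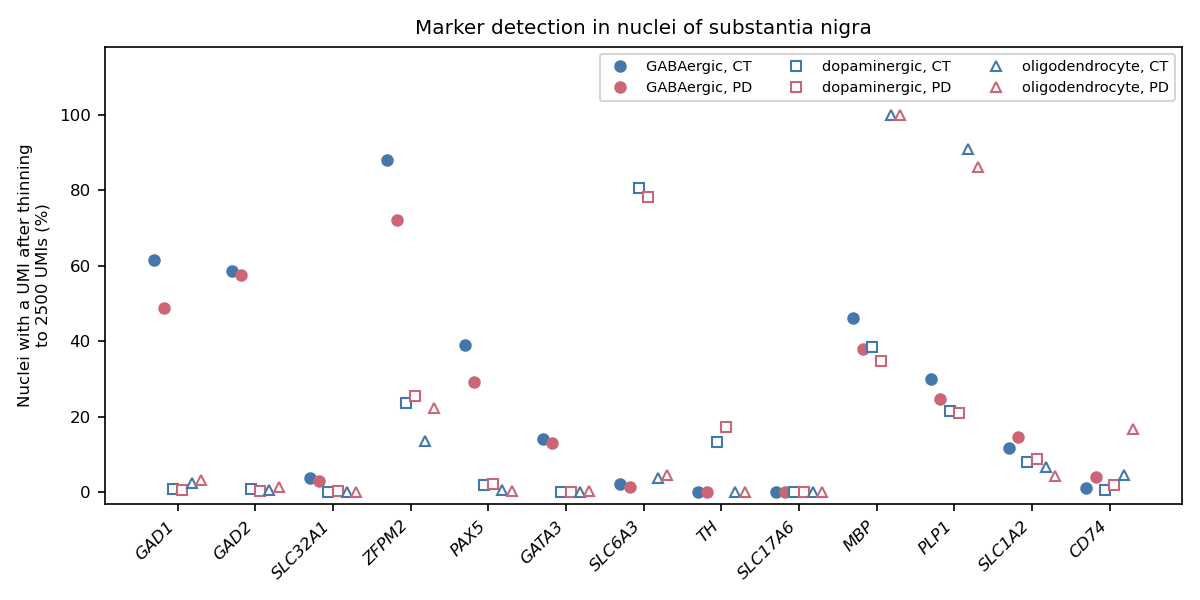
Share of nuclei with at least 1 UMI of each gene (vertical axis, percent) after every nucleus was thinned to 2500 UMIs, in GABAergic (filled circles), dopaminergic (squares) and oligodendrocyte nuclei (triangles) of CT (blue) and PD (red). GAD1 and GAD2, used to choose the GABAergic nuclei, were seen in at least 48.99% of them and in at most 3.39% of the other classes, and SLC32A1 in 3.95% and 3.03% of GABAergic nuclei.

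Nuclei just outside the GAD threshold had ZFPM2 nearly as often as those just inside it, but differed in other markers. Inside it, 57 CT and 78 PD nuclei had 3 or 4 GAD UMIs, and ZFPM2 had a UMI in 94.7% and 78.2% of these. Just outside, 42 CT and 48 PD nuclei had 2 GAD UMIs, with ZFPM2 in 88.1% and 72.9%. With no GAD UMI the share was 25.5% and 36.2%. These shares are not thinned, and median depth was 6609 and 6911.5 UMIs just inside but 3347.5 and 3373.5 with no GAD UMI. PAX5 was seen in 36.8% and 34.6% just inside and 57.1% and 35.4% just outside. SLC32A1 was seen in 8.77% and 7.69% just inside and 4.76% and 4.17% just outside. Nuclei with 20 or more oligodendrocyte UMIs were 10.5% and 5.13% just inside and 19.0% and 10.4% just outside. The limits on SLC17A6 removed 0 CT and 3 PD nuclei, and those on SLC6A3 and SLC18A2 removed 4 and 2. Members with 1 or 2 UMIs of SLC6A3 and SLC18A2 numbered 35 and 32.

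GABAergic nuclei were a larger share of the deeply sequenced nuclei in PD. They were 10.5% (9.09 to 12.1) of 1683 barcodes with at least 2500 UMIs in CT and 14.9% (13.1 to 17.0) of 1325 in PD, a ratio of 1.42 (1.15 to 1.75). Among neuronal nuclei they were 31.9% of 554 in CT and 41.7% of 475 in PD, a ratio of 1.3 (1.06 to 1.61). Dopaminergic nuclei were 21.8% and 20.4% of the same barcodes (0.934, 0.796 to 1.10), and oligodendrocyte nuclei were 54.2% and 42.3% (0.781, 0.702 to 0.869). Of all barcodes, whatever their depth, GABAergic nuclei were 1.77% and 2.20% (1.24, 1.01 to 1.53). A share depends on how many nuclei of every other kind were captured. Without 17 nuclei marked by at least 2 of 6 genes of striatal spiny neurons (16 PD, 1 CT), described below, the first ratio was 1.31. Glutamatergic nuclei numbered 10 and 7.

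The GABAergic nuclei fell into groups that were marked by different developmental transcription factors. ZFPM2 had a UMI in 96.6% of the CT nuclei and 82.8% of the PD nuclei. PAX5, a paired-box factor of the midbrain-hindbrain boundary, had a UMI in 58.2% and 44.9%, and its relative PAX8 in 36.2% and 36.4%. GATA3 was seen in 40.7% and 36.4%. PAX5 and the forkhead factor FOXP2 divided the nuclei. In CT, FOXP2 had a UMI in 14.6% of the nuclei with PAX5 and 67.6% of those without, and in PD in 7.87% and 53.2%. PAX8 went with PAX5: it was seen in 61.2% of the CT nuclei with PAX5 and 1.35% of those without, and in 74.2% and 5.50% in PD. Parvalbumin (PVALB), a calcium-binding protein of fast-firing neurons, was seen in 17 CT and 19 PD nuclei, of which 15 and 14 also had FOXP2. SST, the peptide somatostatin, was seen in 3 CT and 11 PD nuclei, 3 and 9 of them with PAX8. OTX2, a forebrain and midbrain homeobox factor, was seen in 19 and 14 nuclei, of which 16 and 8 had MEIS2.

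Factors of forebrain GABAergic neurons were mixed. BCL11B had a UMI in 39.5% of CT and 46.0% of PD nuclei, SATB1 in 25.4% and 33.8%, EBF1 in 22.0% and 25.3%, PROX1 in 8.47% and 11.1%, and SP9 in 6.21% and 9.09%. BCL11B and EBF1 are also genes of other neurons, and SATB1 was seen in 19.3% of CT oligodendrocyte nuclei. PROX1 was commoner in oligodendrocyte nuclei than in members, at 30.8% in CT and 30.7% in PD. By contrast DLX2, LHX8 and SP8 had no UMI in any member, and DLX1, DLX5, DLX6 and LHX6 had a UMI in at most 2.02% of either library. SOX14, a midbrain and thalamic factor, had none either. VIP, CRH and TRH, peptides of other neurons, were at 0 as well. A count of 0 in these nuclei limits only how many carry a UMI, not how many make the RNA.

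At equal depth some shares were lower and others higher in PD, and most moved toward CT without the spiny-marked nuclei described below. After thinning to 2500 UMIs, ZFPM2 was seen in 88.1% of CT and 72.2% of PD nuclei (ratio 0.819, 0.648 to 1.03), and PAX5 in 39.0% and 29.3% (0.751, 0.521 to 1.08). NXPH1, a neurexin-binding neurexophilin, was seen in 68.9% and 58.1% (0.843, 0.647 to 1.10). CALB2 (calretinin) was seen in 15.3% and 9.60% (0.629, 0.331 to 1.17). All these ratio intervals include 1, but they treat nuclei as event counts and so are wide for large shares. The exact binomial intervals of the ZFPM2 shares over all members did not overlap, at 82.4% to 92.5% in CT and 65.4% to 78.3% in PD. Those of PAX5, NXPH1 and CALB2 did overlap. Without the spiny-marked nuclei the PD shares were 78.0% for ZFPM2, 31.9% for PAX5, 63.2% for NXPH1 and 10.4% for CALB2. Oligodendrocyte nuclei had ZFPM2 in 13.7% and 22.3% and PAX5 in 0.658% and 0.357%. Higher shares in PD were found for NECAB1, a neuronal calcium-binding protein, at 9.60% against 21.2% (2.21, 1.23 to 4.14), and PCP4, a calmodulin-binding peptide, at 5.08% against 13.6% (2.68, 1.22 to 6.48). FOXP1, a forkhead factor, was seen in 32.2% and 45.5% (1.41, 1.002 to 2.003), and EBF3 in 2.82% and 8.59% (3.04, 1.08 to 10.5). Without the spiny-marked nuclei the ratios of NECAB1 (1.71, 0.911 to 3.3), PCP4 (1.4, 0.552 to 3.7) and FOXP1 (1.29, 0.903 to 1.85) had intervals that include 1, and that of EBF3, a leading gene of cluster 9, was 3.29 (1.164 to 11.4). NECAB1 was seen in 12.2% and 11.9% of oligodendrocyte nuclei and FOXP1 in 38.3% and 39.4%, so their CT shares were no higher than in that class. Whether the oligodendrocyte shares are free RNA or expression in those cells was not tested. FOXP2 in PD, at 22.7%, lies near the 20.1% of oligodendrocyte nuclei. Among members, before thinning, it was concentrated, with a UMI in 88.3% of cluster 2 and 6.02% of cluster 1, described below. MEIS2 was commoner in oligodendrocyte nuclei (62.6% and 61.3%) than in members.

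**Figure D2:**
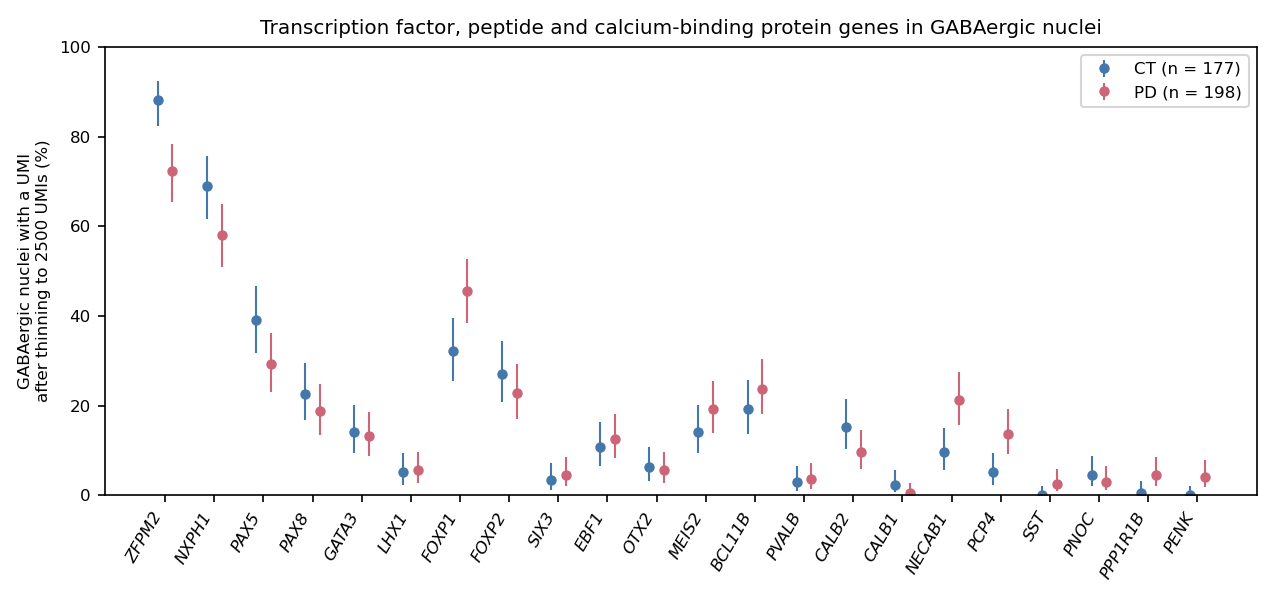
Share of GABAergic nuclei with at least 1 UMI (vertical axis, percent, after thinning to 2500 UMIs) for transcription factor, peptide and calcium-binding protein genes in CT (blue) and PD (red); bars are exact 95% binomial intervals for counting error. NECAB1, PCP4 and FOXP1 are higher in PD, with intervals of the ratio that include 1 once the spiny-marked nuclei are left out. ZFPM2 and PAX5 are lower with ratio intervals that include 1. The bars of ZFPM2, drawn over all members, do not overlap, and its PD share is 78.0% without the spiny-marked nuclei.

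Clustering of the 375 nuclei on 1500 variable genes gave 9 clusters, numbered by size. Their leading genes describe the clusters and are not tested, since the same genes formed them. Cluster 1 (57 CT, 26 PD) was led by COLEC12, CHST8, FAM19A1, ADAM12 and STUM, and PAX5 had a UMI in 91.6% and CALB2 in 56.6% of its nuclei. Cluster 2 (39 CT, 38 PD) was led by EGFLAM, ADARB2, SIX3, FOXP2 and COBLL1. It held 61.0% nuclei with GATA3, 68.8% with EBF1 and 33.8% with PVALB, while PAX8 was at 0.

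Clusters 3 and 7 also carried PAX5, and clusters 4 and 6 were led by other factors. Cluster 3 (17 CT, 32 PD), led by SYTL5, HMCN1, CHST9, VAV3 and COL24A1, had PAX5 in 98.0% and PAX8 in 87.8% of its nuclei. Cluster 7 (7 CT, 18 PD), led by PAPPA2, EYA1, GADL1, NTF3 and ZNF804B, had both in 100% and held SST in 44%. Cluster 4 (16 CT, 31 PD) was led by PDE1C, IL1RAPL2, TCF7L2, PTPRT and GABRG1, with TCF7L2, a Wnt-pathway factor, in 51.1% and PAX5 in 21.3% of its nuclei. Cluster 6 (19 CT, 9 PD) was led by BMPR1B, SPHKAP, OTX2, LEF1 and KIT, had MEIS2 in 100% of its nuclei, no UMI of PAX5 or PAX8, and the lowest median depth, 4038 UMIs.

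Clusters 5, 8 and 9 went against the label in part or came almost wholly from 1 library. Cluster 5 (20 CT, 17 PD) was led by BCAS1, RNF220, SHROOM4, MOBP and C10orf90, genes of oligodendrocytes, and had MBP at 1919 CPM. Of its nuclei 21 had 10 or more myelin UMIs and 5 a doublet score above 0.25, which were all 5 of the members with such a score. Cluster 9 (2 CT, 11 PD) was led by EBF2, EBF3, LMX1B, CADPS2 and IQCJ, with DDC in 38.5% and the vesicular glutamate transporter SLC17A8 in 46.2% of its nuclei. It held no UMI of GAD1, and GAD2 at 586 CPM (445 to 757) placed it among the members. LMX1B and DDC are genes of dopamine and serotonin neurons. Of the GAD genes of the rule only GAD2 was seen in cluster 9. SLC32A1 had a UMI in 1 of these 13 nuclei (7.69%), beside 11.3% of all CT and 10.6% of all PD members, so it does not set them apart.

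**Figure D3:**
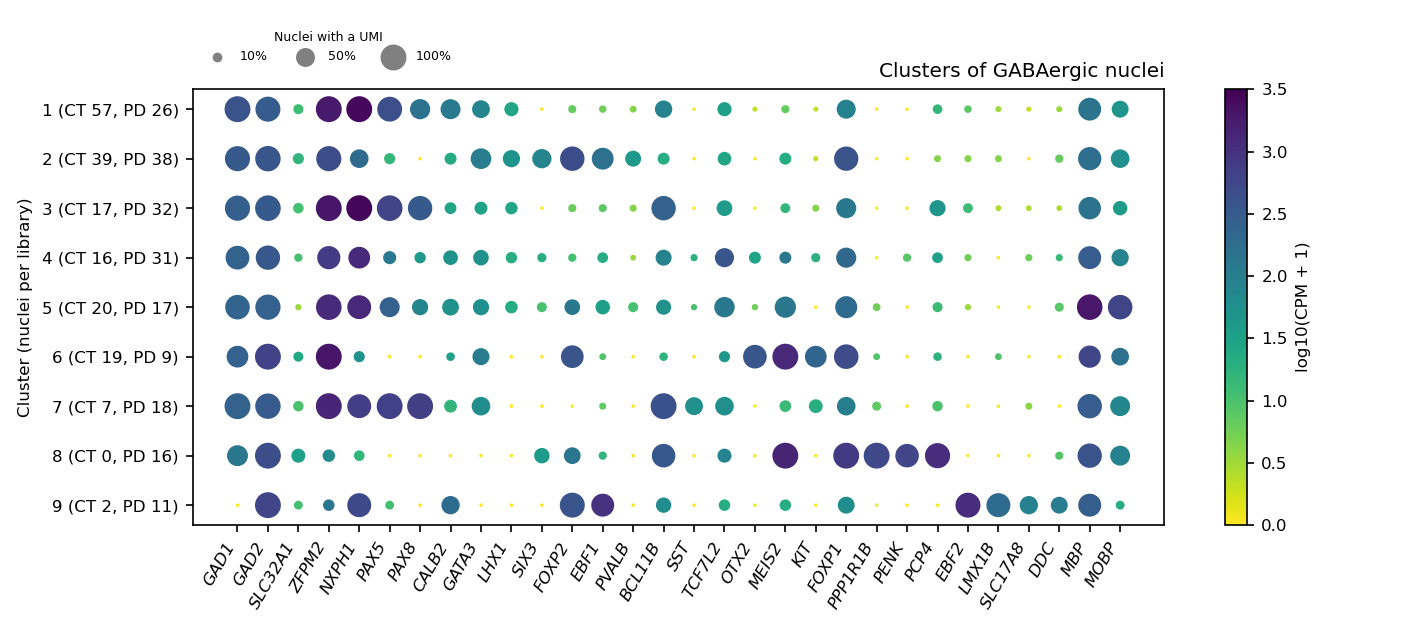
Clusters of GABAergic nuclei (rows, with the CT and PD nuclei of each) and chosen genes (columns); dot size is the percent of nuclei with a UMI and colour the level as log10(CPM + 1). Clusters 1, 3 and 7 carry PAX5, cluster 2 FOXP2 and PVALB, cluster 6 OTX2, cluster 8 PPP1R1B, PENK and PCP4 with no PAX5, and cluster 9 EBF2 and no GAD1.

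Cluster 8 consisted of 16 PD nuclei and no CT nucleus, and carried genes of striatal spiny projection neurons. PPP1R1B (DARPP-32), the dopamine-signalling phosphoprotein of those neurons, was at 552 CPM and the peptide precursor PENK at 590 CPM. ADORA2A was 146, DRD2 184, TAC1 123 and PCP4 1134 CPM, while DRD1 was at 0. PAX5, PAX8 and GATA3 were also at 0 UMIs, and MEIS2 and FOXP1 were 1403 and 835 CPM. All 16 had a UMI of 2 or more of PPP1R1B, ADORA2A, PENK, DRD1, DRD2 and TAC1. Of 177 CT members 1 met the same condition, a nucleus of cluster 9 with UMIs of DRD2 and TAC1 but none of PPP1R1B, PENK or PCP4. Among dopaminergic nuclei 9 of 367 in CT and 8 of 270 in PD met it. In putamen and caudate nucleus, nuclei that met it and had the same GAD minimum numbered 762 to 1286 in a library and had PPP1R1B at 218 to 288 CPM and PENK at 59.4 to 108 CPM. DRD1 was 1.04 to 2.60 CPM there, within the upper bound of 28.3 CPM that 0 of 130480 UMIs gives for cluster 8. None of the 16 had a barcode that occurs in another library.

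The same 16 nuclei carried most of the mitochondrial RNA of the PD members. Mitochondrially encoded genes were 0.684% of their UMIs, against 0.00779% in all CT members and 0.0120% to 0.0166% in the striatal nuclei with spiny genes. With the 16 left out, the PD members had 0.0173% (0.0155 to 0.0192) and the CT members, without 1 such nucleus, 0.00782% (0.00654 to 0.00926). Each of the 9 measured genes of the mitochondrial genome had a higher PD level, with a median log2 ratio of 3.15, and of 1.06 over the same 9 genes without these nuclei. ND4, of respiratory complex I, had 2.34 and 60.2 CPM, and CYTB, of complex III, 12.3 and 125. The PD level thus remained above CT without these nuclei, and values without them are given below where they matter. Over the whole libraries, mitochondrial RNA was 0.0178% of UMIs in CT and 0.0444% in PD.

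Over all GABAergic nuclei 8640 genes had at least 50 UMIs in both libraries together. Of these 168 were at least 2-fold higher in PD (1.94% of the genes) and 137 at least 2-fold lower (1.59%), together 3.53%. The median log2 ratio over all of them was -0.01, with 4210 genes higher and 4430 lower. Without the spiny-marked nuclei 106 genes were at least 2-fold higher, but fewer genes then had 50 UMIs, so this count is not a share of the 8640.

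The 12 genes ranked furthest above CT included several from cluster 8. SH3RF2, a RING finger protein, was 1.76 CPM in CT and 25.8 in PD, but 1.76 and 2.55 without the spiny-marked nuclei. CAMKV, a kinase-like synaptic protein, was 1.76 and 25.3, and 1.76 and 6.62 without them. PCP4 was 13.5 and 90.7, and 13.5 and 21.4 without them. CCDC88C, a Wnt-signalling regulator, was 3.51 and 32.9, and 3.53 and 7.13 without them. PDE7B, a cyclic AMP phosphodiesterase, was 20.5 and 107, and 20.6 and 37.7 without them. These levels show that for SH3RF2 nearly the whole excess lay in those nuclei.

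KCNQ5, a subunit of the M-type potassium channel that damps firing, was higher in PD in GABAergic and oligodendrocyte nuclei. In GABAergic nuclei it was 74.4 CPM in CT and 337 in PD, with a UMI in 22.6% and 45.5% of them (ratio 4.53, 3.75 to 5.52). Without the spiny-marked nuclei it was 74.6 and 178. In cluster 1 it was 19.6 and 103 CPM and in cluster 2 24.1 and 61.8. In dopaminergic nuclei it was 24.7 and 27.4 CPM (1.11, 0.854 to 1.44), and in oligodendrocyte nuclei 28.5 and 57.2 CPM (2.01, 1.54 to 2.61). CACNA2D1, a calcium channel subunit, was 14.6 and 81.6 CPM, and 14.7 and 32.1 without the spiny-marked nuclei.

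Some genes were higher in PD in dopaminergic and oligodendrocyte nuclei of the same libraries as well. NLRC5, which drives MHC class I genes, was 2.34 and 24.4 CPM, a ratio of 10.4 (3.82 to 39.6), and in dopaminergic nuclei 1.64 and 10.8. EFHB was 2.93 and 22.9 CPM, with ratios of 7.38 in dopaminergic and 18.3 in oligodendrocyte nuclei. ATP6AP1L was 9.37 and 43.9 (dopaminergic ratio 5.15, oligodendrocyte 2.28), and HFM1, a helicase of meiosis, was 9.95 and 45.4 (18.9 and 1.81). NLRC5, EFHB, ATP6AP1L, HFM1 and KCNQ5 were the 5 of the 12 that were at least 2-fold higher in both clusters 1 and 2. The nuclei of these clusters are among those that ranked the 12 genes, so this is a description and not further support. Counts were low: NLRC5 had 2 UMIs in CT and 7 in PD in cluster 1, and 1 and 13 in cluster 2. EFHB had 2 and 7, and 1 and 8. EBF3, a transcription factor, was 9.95 and 52.0 CPM and led cluster 9 in rank 2. These comparisons share their libraries, so they are not independent.

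The 12 genes ranked furthest below CT had ratios of at most 0.353 (BTNL8). Leaving out the spiny-marked nuclei could hardly raise them, since PD UMIs only fell from 2094405 to 1963925, so it is no check of these genes. P4HA3, a collagen prolyl hydroxylase, had 55.0 and 9.55 CPM, a ratio of 0.174 (0.101 to 0.283), and 41.8 and 6.29 in dopaminergic nuclei. CINP, a cell-cycle kinase partner, was 51.5 and 10.0 CPM, BOP1, of ribosome biogenesis, 34.5 and 8.12, and SULT1C3, a sulfotransferase, 59.1 and 16.2. In dopaminergic nuclei their ratios were 0.258, 0.191 and 0.384. In oligodendrocyte nuclei the ratios were 0.523 for P4HA3, 0.360 for CINP, 0.131 for BOP1 and 0.593 for SULT1C3, each with an interval below 1. These 4 genes were thus lower in PD in all 3 classes.

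BDNF, the growth factor of the neurotrophin family, was lower in the GABAergic and oligodendrocyte nuclei of PD and near equal in dopaminergic nuclei. In GABAergic nuclei it had 49.2 and 15.3 CPM, a ratio of 0.311 (0.2 to 0.472), with a UMI in 29.9% and 13.1% of the nuclei. It was 80.2 and 24.1 CPM in cluster 1 and 50.7 and 6.62 in cluster 2. In dopaminergic nuclei BDNF was 101 CPM in both (1.003, 0.880 to 1.14), and in oligodendrocyte nuclei 26.4 and 17.2 (0.653, 0.440 to 0.951). No test of the difference between the classes is possible with 1 library in each. Others of the 12 were SLC13A4, a sulfate transporter (54.5 and 16.7), ABCA9, a lipid transporter (70.3 and 23.4), BTNL8 (86.7 and 30.6), SYT10, a synaptotagmin (28.1 and 7.64), NUP210L (34.0 and 10.0), SMOC2 (42.2 and 13.4) and COLEC12 (80.8 and 28.2). COLEC12 led cluster 1, whose nuclei were fewer in PD, and within that cluster it was 198 and 134 CPM.

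**Figure D4:**
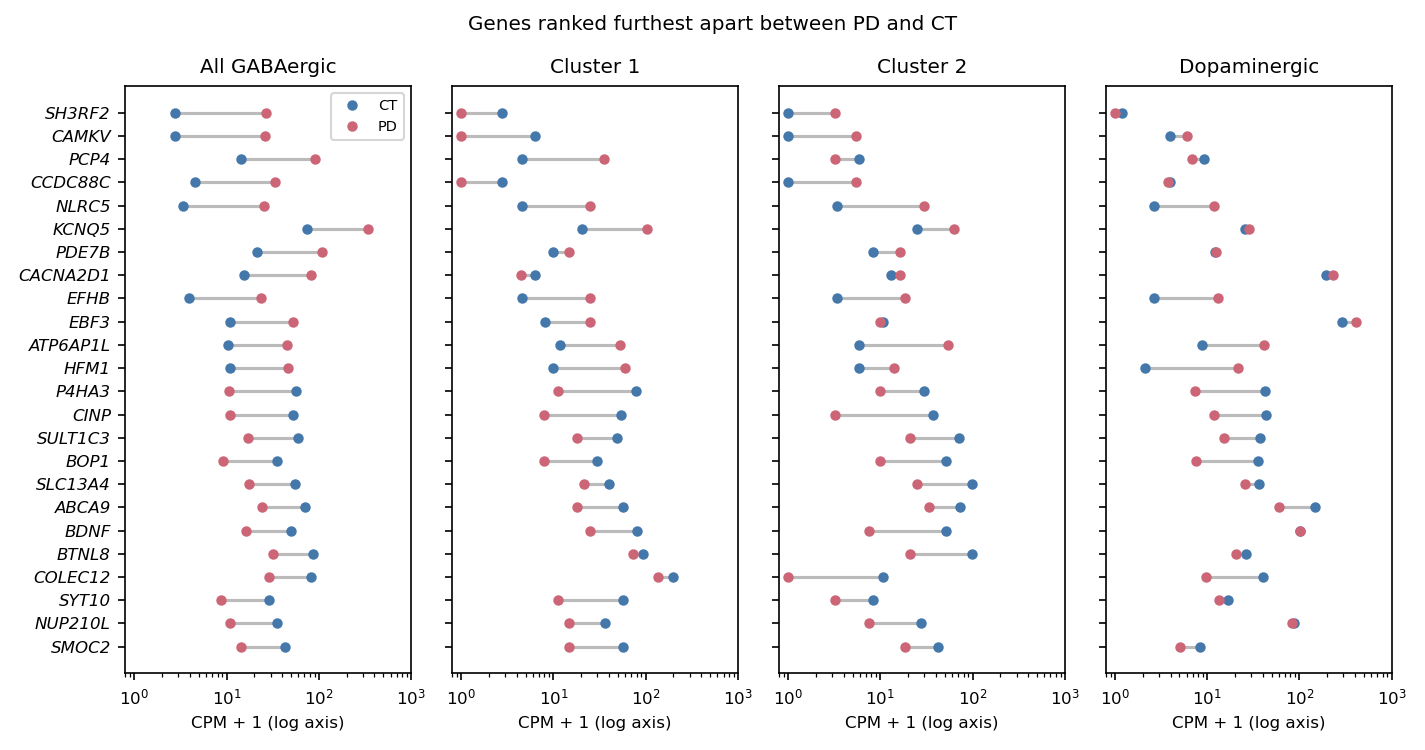
Levels in CPM + 1 (horizontal log axis) in CT (blue) and PD (red) of the 12 genes ranked highest and the 12 ranked lowest in PD, in all GABAergic nuclei, clusters 1 and 2, and dopaminergic nuclei. BDNF is lower in both clusters and close to 101 CPM in both dopaminergic groups, while SH3RF2 is 1.76 CPM in CT and 25.8 in PD over all GABAergic nuclei.

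Most genes of GABA synthesis, packaging and uptake had ratios somewhat below 1 with intervals that include it. Leaving out GAD1 and GAD2, which the rule used, all 7 measured had a lower level in PD, with a median log2 ratio of -0.24, beside -0.01 over all genes measured, of which 4430 of 8640 were lower. An interval of 1 gene lay below 1, as did those of 12.7% of all genes, while 11.9% lay above. None reached 2-fold, a size that 3.53% of all genes reached in either direction. GAD1 had a ratio of 0.771 (0.684 to 0.867), given as a description because the rule used it. SLC38A1, a glutamine transporter that supplies the precursor, had 192 and 149 CPM (0.776, 0.662 to 0.909), and is the gene whose interval lay below 1. SLC38A1 was 207 and 141 CPM in cluster 1 (0.683, 0.466 to 0.983) and 241 and 155 in cluster 2 (0.641, 0.465 to 0.878). GAD2 was 358 and 210 in cluster 1 and 318 and 400 in cluster 2. The uptake transporter SLC6A11 and the degrading enzyme ABAT, of the same list, were 28.7 and 28.2, and 199.7 and 173 CPM. Without the spiny-marked nuclei SLC6A11 was slightly higher in PD, at 28.8 and 30.0 CPM (1.04, 0.702 to 1.56). The interval of ABAT (0.732 to 0.996) then also lay below 1.

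GABA receptor genes were mixed. Of 13 measured 6 were higher and 7 lower, with a median of -0.01. GABRG3, a γ subunit, had 910.5 and 643 CPM, a ratio of 0.706 (0.656 to 0.760), and was lower in cluster 1 (997 and 696) and cluster 2 (1288 and 812). GABRB1, a β subunit, was 340.2 and 494 (1.45, 1.31 to 1.61) and was higher in both clusters, at a ratio of 1.38 in each. GABRA4, an α subunit of extrasynaptic receptors, was the only receptor gene past 2-fold, at 5.86 and 24.8 CPM, and at 5.88 and 14.8 without the spiny-marked nuclei. Of the scaffold genes of the inhibitory synapse 8 of 11 were lower, with a median of -0.12, and 5 intervals lay below 1, against 12.7% of those of all genes. LHFPL4, which anchors GABA-A receptors with neuroligin, was 218 and 142 CPM (0.653, 0.559 to 0.763), and its ratios in clusters 1 and 2 were 0.528 and 0.590. Gephyrin (GPHN), the receptor scaffold, was 1397 and 1212 (0.867, 0.820 to 0.918), with 0.825 and 0.862 in the clusters. IQSEC3 was 241 and 173 CPM, with ratios of 0.536 in cluster 1 and 0.826 in cluster 2, where the interval (0.608 to 1.12) includes 1.

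Transcription factor and calcium-binding protein genes depended on the spiny-marked nuclei in part. Of 18 measured midbrain and hindbrain factors 7 were higher and 11 lower, with a median of -0.08. OTX2 had 22.2 and 10.0 CPM (0.451, 0.251 to 0.788), and PAX5 339.6 and 272 (0.800, 0.711 to 0.9). ZFPM2 had 1367 and 1124 CPM (0.822, 0.776 to 0.871). Without the spiny-marked nuclei the last 3 ratios were 0.479, 0.850 and 0.871, each with an interval below 1. MEIS2, a homeobox factor, turned: it had 98.4 and 151 CPM over all nuclei (1.53, 1.27 to 1.86) and 98.7 and 67.7 without them (0.686, 0.542 to 0.866). Cluster 6, which held 10.7% of the CT and 4.55% of the PD members, had 45 UMIs of OTX2 and 158 of MEIS2. The levels of these 2 genes thus depend on how many nuclei of that cluster each library held. Whether they differ within it was not tested. FOXP1 had 194 and 258 CPM, and 195 and 220.0 without them, where the interval of the ratio (0.978 to 1.31) includes 1. BCL11B, a factor of striatal and other neurons, had 103 and 156 CPM, and 103 and 143 without them (1.38, 1.14 to 1.67).

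Of 7 calcium-binding protein and nitric oxide synthase genes, 4 were higher and 3 lower. NECAB1 had 35.1 and 96.0 CPM (2.73, 2.04 to 3.71), and 35.3 and 69.8 without the spiny-marked nuclei (1.98, 1.45 to 2.73). CALB2 had 69.7 and 42.0 CPM (0.603, 0.452 to 0.801). In cluster 1, which was smaller in PD, CALB2 had 117.7 and 121 CPM (1.02, 0.660 to 1.57), so the lower level was not seen there. NOS1, which makes nitric oxide, had 24.6 and 13.4 CPM but a UMI in 6.21% and 9.60% of the nuclei, with 39 of its UMIs in 7 nuclei of cluster 4. Among 6 measured peptide genes, PENK had 1 UMI in CT against 37.7 CPM in PD, and 1.02 CPM in PD without the spiny-marked nuclei. NXPH2, a neurexophilin, had 24.0 and 11.0 CPM, and PNOC, the nociceptin precursor, 20.5 and 11.5. GLRA3, a glycine receptor subunit, was the only one of 5 glycine genes past 2-fold, at 35.1 and 86.9 CPM (2.47, 1.84 to 3.37), and its ratio was 2.61 without the spiny-marked nuclei. Of 9 perineuronal net genes 5 were lower, and HAPLN2, a link protein also made by oligodendrocytes, had 77.3 and 38.2 CPM.

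Among 34 channel genes of firing and pacemaking, 15 were higher and 19 lower, and only KCNQ5 passed 2-fold. KCNN3, a calcium-activated potassium channel, was 157 and 94.5 CPM (ratio 0.602, 0.499 to 0.727), and KCNN2 148 and 105 (0.712, 0.591 to 0.856). KCNQ3 was 865 and 678 (0.784, 0.728 to 0.844), and KCND2, an A-type potassium channel, 803 and 1053 (1.31, 1.23 to 1.41). Clusters 1 and 2 gave different values: KCNQ3 had ratios of 0.841 in cluster 1 and 1.11 in cluster 2, and KCND2 1.08 and 1.495. Within cluster 1, 4 of 22 measured channel genes were higher in PD, and within cluster 2, 12 of 21. CACNA1G, a T-type calcium channel, was 28.7 and 54.4 CPM over all nuclei.

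HTR2C and GRM7 had ratios on opposite sides of 1 in clusters 1 and 2. HTR2C, a serotonin receptor, had 1075 and 1292 CPM over all nuclei, a ratio of 1.20 (1.13 to 1.28), but 1181 and 448 in cluster 1 (0.380, 0.312 to 0.459) and 639 and 799 in cluster 2 (1.25, 1.06 to 1.47). GRM7, a presynaptic glutamate receptor, was 562 and 769 over all nuclei, with ratios of 1.26 (1.05 to 1.52) and 0.555 (0.470 to 0.653) in clusters 1 and 2. Of 23 glutamate receptor genes 15 were higher, with a median of 0.07. HTR4, another serotonin receptor, had 76.7 and 113 CPM, and 77.0 and 91.1 without the spiny-marked nuclei (1.18, 0.940 to 1.49). DRD2, the dopamine receptor, had 9.37 and 18.6 CPM, and 8.82 and 7.64 without them. HCRTR2, an orexin receptor, was lower, at 109 and 74.0 CPM (0.680, 0.546 to 0.846). The nuclei of a cluster were chosen with these genes, so the differences within it are descriptions.

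Several other lists had medians within 0.1 of that of all genes, and MHC class I, interferon and heat shock lists had higher ones. So did cholesterol synthesis (0.13), forebrain factors (0.39), calcium-binding proteins (0.19) and peptides (0.12). Vesicle release genes had a median of -0.06. SYP, a vesicle membrane protein, had 185 and 122 CPM (0.661, 0.558 to 0.781), and SYN1, which tethers vesicles, 69.1 and 123. SV2C, a vesicle protein, had 35.1 and 76.9, and 34.7 and 40.7 without the spiny-marked nuclei. Poly(ADP-ribose) and NAD genes had 7 of 19 higher and a median of -0.05. NAMPT, the rate-limiting enzyme of NAD salvage, was 16.4 and 31.5 CPM (1.92, 1.22 to 3.11), MACROD1, which removes ADP-ribose, 104 and 63.5 (0.613, 0.486 to 0.772), and PARP1 31.0 and 35.8. Of 27 measured Parkinson's disease genes 14 were higher, with a median of 0.01. Proteasome (22 genes), lysosome (28) and nuclear respiratory chain genes (35) had medians of -0.02, -0.03 and -0.02. Heat shock genes had 0.12, and 0.08 without the spiny-marked nuclei. The 6 measured interferon genes had a median of 0.30, with 2 intervals above 1 and 2 below. Of the 4 measured MHC class I genes 3 were higher, with a median of 0.97 that turned to -0.12 with nuclei thinned to 2500 UMIs and to -0.082 with a minimum of 200 UMIs per gene. CALR, an assembly chaperone, was 8.20 and 21.5 CPM, and HLA-E 15.8 and 23.9 (1.51, 0.928 to 2.51). No MHC class II gene reached the minimum. DDX58, a viral RNA sensor, was 65.0 and 36.3 CPM.

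**Figure D5:**
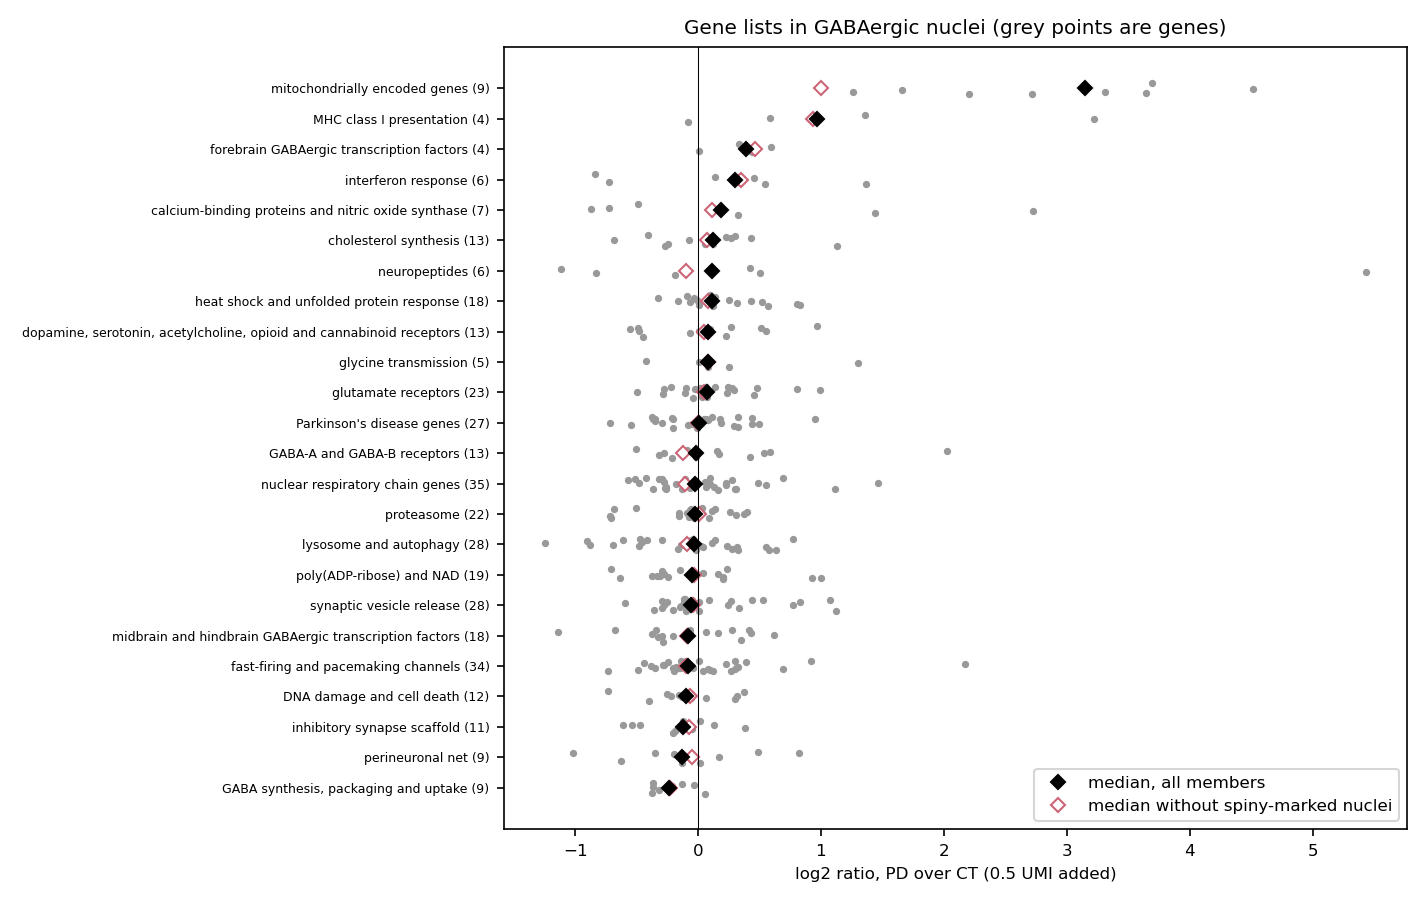
Log2 ratio of PD over CT (horizontal axis, 0.5 UMI added) for gene lists with at least 4 measured genes in GABAergic nuclei; grey points are genes, black diamonds medians, open diamonds medians without spiny-marked nuclei, and the number of genes is in parentheses. Mitochondrially encoded genes have medians of 3.15 and 1.0 (the open diamonds use the genes that still have 50 UMIs), and the GABA synthesis list is lowest at -0.24.

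GABAergic nuclei were set beside dopaminergic nuclei of the same library. The comparison is a description, since the rules that chose both classes used genes of these nuclei. Of 9518 genes, 557 (5.85%) were at least 2-fold higher and 369 (3.88%) lower in GABAergic nuclei of both libraries. HTR2C was 1075 against 10.4 CPM in CT and 1292 against 6.03 in PD. PAX8, FAM19A1, GATA3, PAX5, SORCS3 and MYO16 were also among the 8 highest. ALDH1A1, RSPO2, CADPS2, CHRNB3, DDC, NPNT, CRISPLD1 and MCC were the 8 lowest. ALDH1A1, a dehydrogenase of retinoid synthesis and dopamine breakdown, was 5.27 against 404 CPM in CT and 2.39 against 224 in PD. Against the 17 glutamatergic nuclei 242 of 5827 genes (4.15%) were at least 2-fold higher and 74 (1.27%) lower in both libraries.

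Of 32 channel genes of firing and pacemaking 9 were at least 2-fold higher, 3 lower and the rest neither in both libraries. KCNC1, a fast delayed-rectifier potassium channel, was 127 against 7.63 CPM in CT and 111 against 5.53 in PD. SCN1A, a sodium channel of fast-spiking neurons, was 284 against 18.2 and 351 against 42.0 CPM. The KCNN3 channel was 157 against 498 CPM and 94.5 against 505. Among 16 midbrain and hindbrain factors 6 were higher and 5 lower. The GABA receptor subunit GABRB1 was 340.2 against 1136 and 494 against 1252. GRM8, a glutamate receptor, was 244 against 9.63 CPM in CT and 201 against 12.8 in PD.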

How the data were processed

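Nuclei were isolated with the Nuclei PURE Prep kit and run on a 10x Chromium platform with 3′ v.3 chemistry, per the labels' protocols, which mention Macaca mulatta although the organism is labelled Macaca fascicularis. The deposited matrices hold the authors' UMI counts per gene and barcode, made with Cell Ranger 7.0.1 per the file headers, with no normalization. The submitters' processing notes name hg38, but gene identifiers are those of Macaca fascicularis. File names alone tie each matrix to a group. CT totalled 22198570 and PD 18692617 UMIs. No correction for free RNA was made, and automatic Scrublet calls marked 0 and 1 barcodes, so that a score of 0.25 served as an alternative only. UMIs were summed over members, scaled to CPM, and compared by ratios with exact conditional binomial intervals, shares with exact Clopper-Pearson intervals, and log2 ratios with 0.5 UMI added. Clusters came from Leiden clustering with scanpy 1.11.5 (20 components, 15 neighbours, resolution 0.6). The 12 genes per direction were those with the interval bound nearest to 1 furthest from it, among genes with a symbol, 50 UMIs, and a UMI in 10% of the nuclei of the higher library, leaving out mitochondrial, ribosomal, hemoglobin, sex-linked and non-neuronal marker genes. The 8 genes per direction against dopaminergic nuclei were ranked by the weaker library, and each cluster is given by its 5 leading genes by fold. Members and lists were chosen with earlier results of these data known. Some gene values are not reported here.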

Additional observations from a re-analysis of the deposited data

How the results depend on the processing

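No paired analysis was possible because each group was 1 library and its barcodes carry no replicate number, and for the same reason no replicate could be left out. The ratio of GABAergic shares stayed above 1, at 1.20 to 1.42 of deep barcodes and 1.25 to 1.40 of neuronal nuclei, under the 6 alternatives that change the members. The number of genes at least 2-fold higher in PD, 168, was 57 when a UMI of SLC32A1 was required (20 CT and 21 PD nuclei), 62 with nuclei thinned to 2500 UMIs, 26 with a minimum of 200 UMIs per gene and 106 without the spiny-marked nuclei, an alternative chosen after seeing the data. The number at least 2-fold lower, 137, was 31, 43 and 11 under the first 3 of these, which left 2111, 3924 and 3895 genes to measure. Leaving out the spiny-marked nuclei also left fewer than 8640 genes to measure. The median log2 ratio of the MHC class I list reversed, to -0.12 with thinned nuclei and -0.082 with the higher minimum, where fewer of its genes remained. The log2 ratios of PCP4, KCNQ5, PDE7B and CACNA2D1 without the spiny-marked nuclei were 0.65, 1.25, 0.86 and 1.11. Genes with few UMIs, NLRC5 and SH3RF2 among them, are limited by depth.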
